A study of Homo sapiens with 24 samples.

Results

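The genes described here are receptors of the ERBB family, ligands that activate them and proteins that switch them off: EGFR, ERBB3, LRIG1, LRIG3, ERRFI1, AREG, EREG, HBEGF and TGFA. They were chosen by name, every probe annotated with 1 of these 9 symbols was taken, and ERBB2 was left out. The arrays name 20046 genes, and 8 of these 9 are among them (15 probes in all). Of the 9, 7 had a probe past the detection filter (12 probes). They were measured in HCC1954 and JIMT1 cells, 2 PIK3CA-mutant breast cancer lines that do not respond to BYL719. Each line was treated for 4 hr with both agents together (1 μM each), with the PI3Kα inhibitor BYL719 (1 μM), with the PDK1 inhibitor GSK2334470 (1 μM) or with DMSO alone. Each of these 8 groups held 3 Illumina bead arrays, 24 in all, labelled as biological replicates of a line grown in culture. The first group is called the combination below.

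ERBB receptors are tyrosine kinases of the cell surface that pair up when a ligand binds and then feed the PI3K and MAPK pathways. ERBB3 has little kinase activity of its own, but its tail binds PI3K directly, so that it is a main link between ERBB2 and PI3K in breast cancer cells. Inhibitors of PI3K or AKT are known to raise ERBB3 transcripts through FOXO transcription factors. The family is held in check by inhibitors such as LRIG1, a membrane protein that promotes loss of ERBB receptors, and ERRFI1 (also called MIG6), which binds and blocks the EGFR kinase domain. HBEGF, TGFA, AREG and EREG are made as membrane proteins and released by proteases to bind EGFR, and HBEGF and EREG also bind ERBB4.

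The values are normalized log2 intensities, and a fold change is a difference between group means on that scale, which understates the change of dim probes. Each gene is described by its brightest probe, with its other probes beside it. An effect is called when limma's p, adjusted by Benjamini-Hochberg over the 21256 probes past the filter, is under 0.05. The median deposited intensity of an array lay between 48.47 and 81.93, the share of detected probes between 40.99% and 45.17%, and a member's probe was read from 8 to 34 beads (median 20). The number of arrays, 3 per group, limits the precision. The epithelial markers EPCAM, CDH1, KRT8, KRT18 and KRT19 were detected on all 24 arrays, and the leukocyte markers PTPRC and CD3E and the fibroblast marker PDGFRB on 0. COL3A1 and LUM were detected on 1 array each, DCN on 4, COL1A2 on 11, COL1A1 and CD14 on 23, and CD68 on 24. The endothelial markers PECAM1 and CDH5 were detected on 24 and 21 arrays, and VWF on the 12 HCC1954 arrays alone.

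Under the combination, 7 of the 12 tested probes were called in HCC1954, 6 higher and 1 lower, while 10.5% of all probes were called there, 5.08% higher and 5.44% lower. The 6 include a dim ERBB3 probe that passed the filter only through treated HCC1954 groups, and without it 6 of 11 probes were called, 5 higher and 1 lower. In JIMT1 the combination gave 7 calls, 3 higher and 4 lower, beside a background of 16.6% (8.84% higher, 7.76% lower). BYL719 gave 6 calls in HCC1954 (4 higher, 2 lower), with a background of 2.17% (1.11% higher, 1.07% lower), and 4 in JIMT1 (1 higher, 3 lower), with a background of 7.48% (4.09% higher, 3.39% lower). GSK2334470 gave 0 calls in either line, with backgrounds of 0.00941% in HCC1954 and 0.804% in JIMT1. At an unadjusted p under 0.05, limma gave 4 probes in HCC1954 and 4 in JIMT1, and the methods' t-test gave 3 and 4. Over all probes, these shares were 12.1% and 10.8% by limma and 8.04% and 10.2% by the methods' t-test. The share of all probes whose 3 treated and 3 DMSO arrays did not overlap was 25.4% for the combination and 18.6% for BYL719 in HCC1954, and 35.4% and 24.9% for the same treatments in JIMT1. No such share is given for GSK2334470 against DMSO, between agents or for several groups at once. A lack of overlap in those cases below is a description alone. The median log2 fold change of the 12 probes under the combination was 0.14 in HCC1954 and -0.16 in JIMT1, beside 0.00 and -0.01 over all probes. The genes were picked with earlier results of these arrays known, and probes of 1 gene share its transcript, so these shares are a description. All treatments of a line share its 3 DMSO arrays, and a lower level in every cell cannot be told apart from fewer cells that make the transcript. With arrays scaled to the median of all probes in place of quantile normalization, the counts were 5 for the combination in HCC1954 (4 higher, 1 lower), 2 in JIMT1 (both higher), 0 for BYL719 in HCC1954 and 2 in JIMT1 (1 higher, 1 lower), so that most single-line calls below were lost under that setting.

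**Figure D1:**
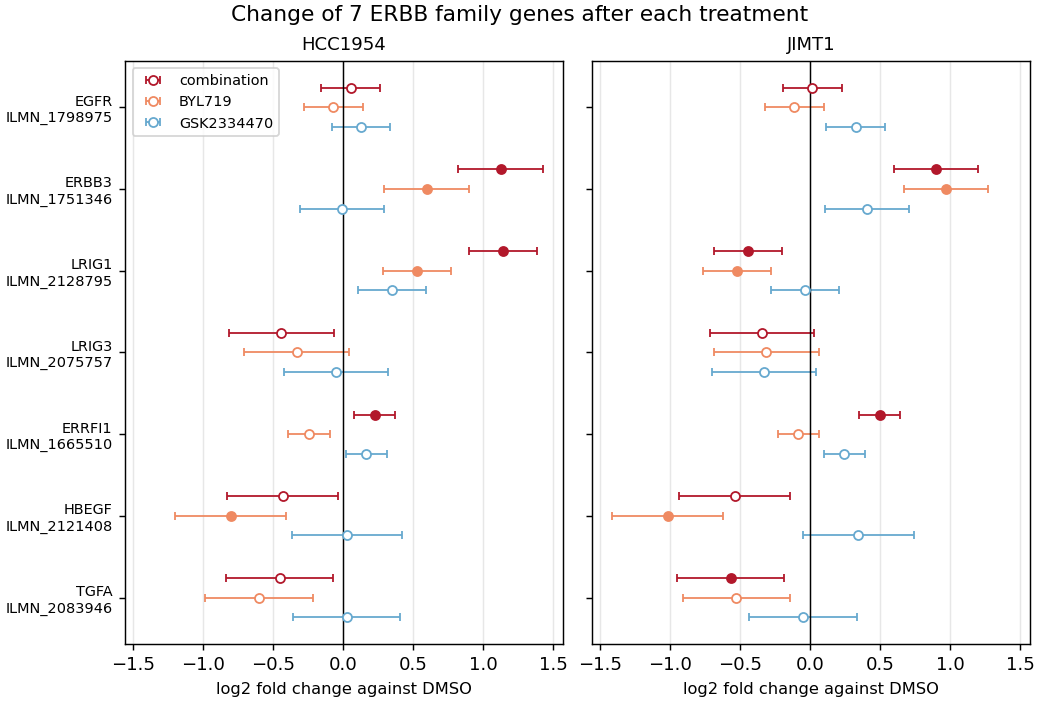
The x axis gives the log2 fold change against DMSO, with its 95% confidence interval as bars, for the brightest probe of 7 genes under each treatment in HCC1954 (left) and JIMT1 (right); filled points passed an adjusted p of 0.05 and open points did not. ERBB3 lies right of 0 under the combination and BYL719 in both lines, whereas LRIG1 lies on opposite sides of 0 in the 2 lines.

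LRIG1 (chr3:66378797-66501121, GRCh38.p14) changed in opposite directions in the 2 lines. It rose in HCC1954 and fell in JIMT1, under the combination and under BYL719, on both of its probes. On the brightest probe, ILMN_2128795, the HCC1954 arrays had log2 intensities of 10.16, 10.35 and 10.18 with the combination, 9.53, 9.59 and 9.72 with BYL719, 9.42, 9.41 and 9.48 with GSK2334470, and 8.91, 9.24 and 9.11 with DMSO. All 9 treated arrays thus lay above the 3 DMSO arrays, and the 3 combination arrays above all others. The JIMT1 arrays had 8.64, 8.63 and 8.51 with the combination, 8.45, 8.69 and 8.40 with BYL719, 9.21, 8.91 and 8.89 with GSK2334470, and 8.84, 9.23 and 9.05 with DMSO. Here the combination and BYL719 arrays lay below every DMSO array, while the GSK2334470 arrays overlapped them. With DMSO alone the lines did not differ by the test on either probe (HCC1954 minus JIMT1, 0.05 and -0.05 on the log2 scale, limma adjusted p = 0.74 and 0.709), whereas 63.2% of all probes did.

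The log2 fold change of LRIG1 under the combination was 1.14 in HCC1954 (SE 0.12, adjusted p = 1.36e-06 from limma), which is 2.21-fold, and -0.45 in JIMT1 (SE 0.12, adjusted p = 0.0115). The other probe, ILMN_1707342, gave 1.01 (adjusted p = 2.51e-06) and -0.58 (adjusted p = 0.000845). Under BYL719 the brightest probe changed by 0.53 in HCC1954 and -0.52 in JIMT1 (adjusted p = 0.0194 and 0.00726), and the other probe by 0.72 (adjusted p = 0.000796) and -0.51 (adjusted p = 0.00452). The difference between the lines was itself tested. For the combination it was 1.59 on both probes (HCC1954 minus JIMT1, 95% confidence interval 1.24 to 1.93 on the brightest probe, adjusted p = 1.07e-05 and 4.42e-06), where 2.72% of all probes were called, 1.00% higher. For BYL719 it was 1.05 and 1.23 (adjusted p = 0.00227 and 0.000212), where 0.696% of all probes were called, 0.221% higher. For GSK2334470 it was 0.38 and 0.42 (adjusted p = 0.428 and 0.364), which did not pass, with a background of 0.0376%. LRIG1 alone among the 7 tested genes had a called line difference in any of these 3 treatments. Several of the single-line calls of the brightest probe rested on 1 array. The BYL719 call in HCC1954 was lost without BYL719 replicate 2 (adjusted p = 0.0616), BYL719 replicate 3 (0.0988) or DMSO replicate 1 (0.107). In JIMT1 the combination call was lost without combination replicate 3 (0.052) or DMSO replicate 2 (0.0737), and the BYL719 call without DMSO replicate 2 (0.054), while each of these 4 called line differences held without any 1 array. Under the scaling to the median of all probes, both BYL719 line differences were lost (adjusted p = 0.48 and 0.227) and both combination ones held. The single-line calls in JIMT1 were lost there on both probes, for the combination (adjusted p = 0.308 and 0.122) and for BYL719 (0.287 and 0.302). In HCC1954 the BYL719 calls were lost as well (0.677 and 0.28), while the combination calls held on both probes.

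**Figure D2:**
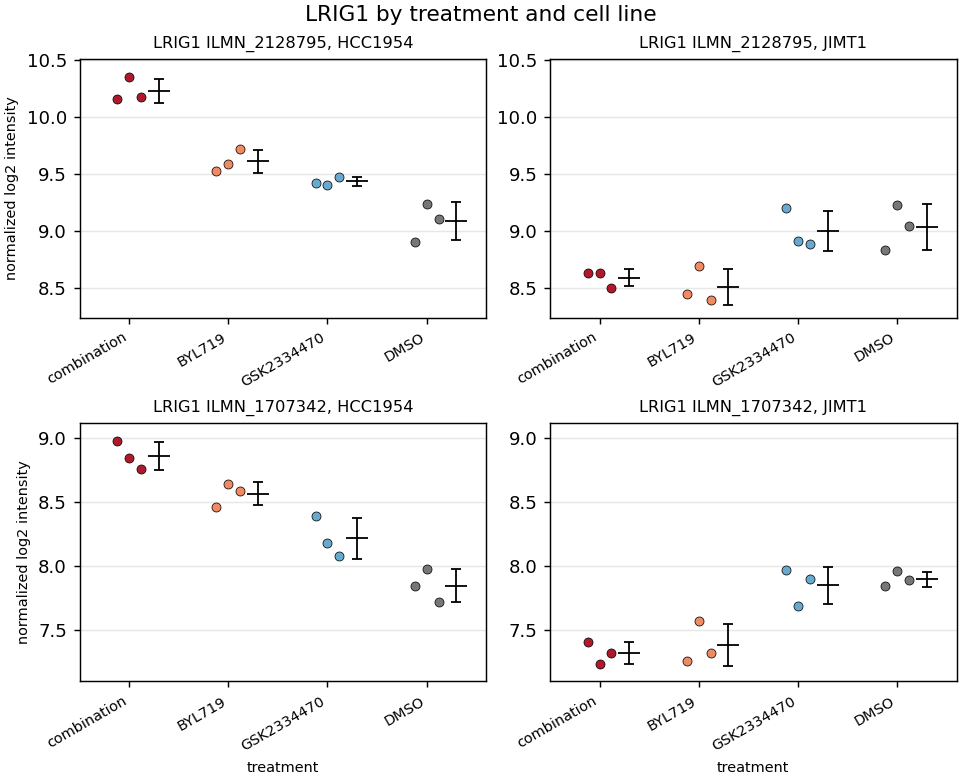
Normalized log2 intensity (y axis) of the 2 LRIG1 probes by treatment (x axis) in HCC1954 (left) and JIMT1 (right); each point is 1 array, and the bar beside it is the mean with its SD (n = 3). The combination arrays sit at 10.16 to 10.35 in HCC1954 and at 8.51 to 8.64 in JIMT1 on the brightest probe, against 8.91 to 9.24 and 8.84 to 9.23 with DMSO.

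Within HCC1954, LRIG1 with the combination also stood above each agent alone on the brightest probe, by 0.62 over BYL719 (adjusted p = 0.00783) and 0.79 over GSK2334470 (adjusted p = 0.000199), where 1.65% and 5.54% of all probes were called. On the other probe the step over GSK2334470 passed (0.64, adjusted p = 0.000829) and that over BYL719 did not (0.29, adjusted p = 0.232). The combination effect minus the sum of the single-agent effects was 0.27 and -0.08 on the 2 probes (adjusted p = 0.832 and 0.976, background 0.00470%). In JIMT1 the combination and BYL719 gave levels that the test did not separate (0.08, 95% confidence interval -0.16 to 0.32, on the brightest probe), and both were below GSK2334470, by -0.41 and -0.49 (adjusted p = 0.0354 and 0.0251, backgrounds 7.57% and 2.49%). The call of -0.41 was lost on leaving out any 1 of the 3 combination arrays, GSK2334470 replicate 1 or GSK2334470 replicate 2 (adjusted p from 0.0592 to 0.174), and that of -0.49 without BYL719 replicate 1 (0.109), BYL719 replicate 3 (0.112) or GSK2334470 replicate 1 (0.143). From high to low, the order on the brightest probe was combination, BYL719, GSK2334470 and DMSO in HCC1954, and DMSO, GSK2334470, combination and BYL719 in JIMT1. The neighbours that the test separated were the combination and BYL719 in HCC1954, and GSK2334470 and the combination in JIMT1.

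The promoter set used here (GRCh38.p14) holds promoters for 8 of the 9 genes, 14 windows of 300 bases in all. The gene without one in that set is ERBB3, so no ERBB3 sequence was searched. They were searched on both strands for GTAAACA, a core site of forkhead factors such as FOXO, for CAAAACA, the insulin-response form of it, and for TGACTCA, the AP-1 site that ERK signalling acts on. The forkhead letters were in 0 of the 14 windows and in 3.42% of all 35116 promoters, and the insulin-response letters in 0 of 14 and in 4.92%. The AP-1 letters were in 2 of the 14 and in 4.95% of all promoters. Each of the 2 windows holds the letters 2 times, once per strand and without overlap, and 0.222% of all promoters hold 2 or more matches. They belong to starts inside the LRIG1 and EGFR genes, not to the outermost ones, and the probes do not tell which start was used. They are shown as the 2 windows of these genes with a match, as the 250 bases before each start, 5′ to 3′ on the gene's strand, with the AP-1 letters in capitals. The LRIG1 window is chr3:66405768-66406017 (minus strand), with matches that begin 166 and 77 bases before the start. The EGFR window is chr7:55109589-55109838 (plus strand), with matches that begin 232 and 136 bases before the start.
LRIG1: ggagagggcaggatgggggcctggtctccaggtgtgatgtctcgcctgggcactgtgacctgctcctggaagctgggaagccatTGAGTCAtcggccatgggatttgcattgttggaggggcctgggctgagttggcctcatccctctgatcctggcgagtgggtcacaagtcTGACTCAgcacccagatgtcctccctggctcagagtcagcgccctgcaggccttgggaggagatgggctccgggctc
EGFR: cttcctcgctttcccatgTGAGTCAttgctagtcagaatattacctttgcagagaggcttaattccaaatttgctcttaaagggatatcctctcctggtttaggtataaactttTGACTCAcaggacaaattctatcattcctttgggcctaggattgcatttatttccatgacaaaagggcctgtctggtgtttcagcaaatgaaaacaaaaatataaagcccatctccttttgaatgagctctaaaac
A match in letters is no measured binding site, and the arrays hold no measure of binding.

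ERBB3 (chr12:56080108-56103505) rose under the combination and under BYL719 in both lines. On its brightest probe, ILMN_1751346, the HCC1954 arrays had log2 intensities of 10.23, 10.91 and 10.72 with the combination, 10.18, 9.96 and 10.13 with BYL719, 9.29, 9.81 and 9.36 with GSK2334470, and 9.55, 9.56 and 9.37 with DMSO. The combination and BYL719 arrays lay above all DMSO arrays, and the GSK2334470 arrays on both sides of them. The JIMT1 arrays had 10.72, 10.68 and 10.72 with the combination, 10.71, 10.78 and 10.85 with BYL719, 10.14, 10.26 and 10.25 with GSK2334470, and 9.79, 9.68 and 9.96 with DMSO. In JIMT1 all 3 treatments thus lay above DMSO, with BYL719 alone as high as the combination. The study also measured ERBB3 by qRT-PCR, as a known FOXO3 target, and the gene was chosen here with earlier results of these arrays known, so its direction under the combination is no independent evidence.

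The log2 fold change of ERBB3 under the combination was 1.12 in HCC1954 and 0.90 in JIMT1 (SE 0.14 for both). Under BYL719 it was 0.60 in HCC1954 (adjusted p = 0.0333 from limma) and 0.97 in JIMT1 (adjusted p = 0.000199). Under GSK2334470 it was -0.01 (adjusted p = 0.986) and 0.41 (adjusted p = 0.261), which did not pass. The combination exceeded GSK2334470 in both lines, by 1.13 in HCC1954 and 0.49 in JIMT1 (adjusted p = 4.36e-05 and 0.0421). It did not pass against BYL719 in either, with 0.53 in HCC1954 (95% confidence interval 0.23 to 0.83, adjusted p = 0.0738) and -0.07 in JIMT1 (-0.37 to 0.23, adjusted p = 0.87). BYL719 itself exceeded GSK2334470 by 0.60 in HCC1954 and 0.56 in JIMT1 (adjusted p = 0.0494 and 0.0403). The call of BYL719 against DMSO in JIMT1 held without any 1 array. Of the calls against GSK2334470, only that of the combination in HCC1954 did. The JIMT1 ones were lost on leaving out any of the 6 arrays compared (adjusted p from 0.0726 to 0.133 for the combination and from 0.0817 to 0.139 for BYL719), and the HCC1954 call for BYL719 on leaving out any but GSK2334470 replicate 2 (0.0956 to 0.233). The difference between the lines was 0.23 for the combination and -0.37 for BYL719 (95% confidence intervals -0.20 to 0.65 and -0.80 to 0.05), and neither passed (adjusted p = 0.619 and 0.586). The BYL719 call in HCC1954 on this probe was lost on leaving out any 1 of the 6 arrays compared (adjusted p from 0.0562 without BYL719 replicate 2 to 0.114 without BYL719 replicate 3). It was also lost under the scaling to the median of all probes (0.529) and in a fit of the HCC1954 arrays alone (0.163). Of 17 alternatives, left-out arrays included, the BYL719 calls held in 7 in HCC1954 and 16 in JIMT1. The combination calls held in 16 in HCC1954 and 17 in JIMT1.

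The size of the ERBB3 change depended on the probe. ILMN_1737993 rose by 0.69 in HCC1954 and 0.51 in JIMT1 under the combination (adjusted p = 7.67e-05 and 0.00117). Under BYL719 it rose by 0.51 in HCC1954 (adjusted p = 0.00749), a call that held without any 1 array. That call was lost under the scaling to the median of all probes (0.402) and in a fit of the HCC1954 arrays alone (0.0634). The HCC1954 combination call was also lost under that scaling (0.0533). Of 16 alternatives, left-out arrays included, the BYL719 call held in 13. The combination calls held in 14 in HCC1954 and 16 in JIMT1. The change of ILMN_1737993 under BYL719 in JIMT1, 0.32, just missed the threshold (adjusted p = 0.0551). The dim probe ILMN_2397602 had log2 intensities in HCC1954 of 6.54, 6.20 and 6.31 with the combination and 5.19, 5.42 and 5.33 with DMSO. It was detected on all 3 arrays of each treated HCC1954 group, on 2 HCC1954 DMSO arrays and on 1 array in each JIMT1 group. It thus passed the filter only through the treated HCC1954 groups, and its values are given as a description, with no test. The baseline order of the lines also differed by probe, since HCC1954 minus JIMT1 under DMSO was -0.32 on the brightest probe (adjusted p = 0.0633) and 0.53 on ILMN_1737993 (adjusted p = 9.24e-05).

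**Figure D3:**
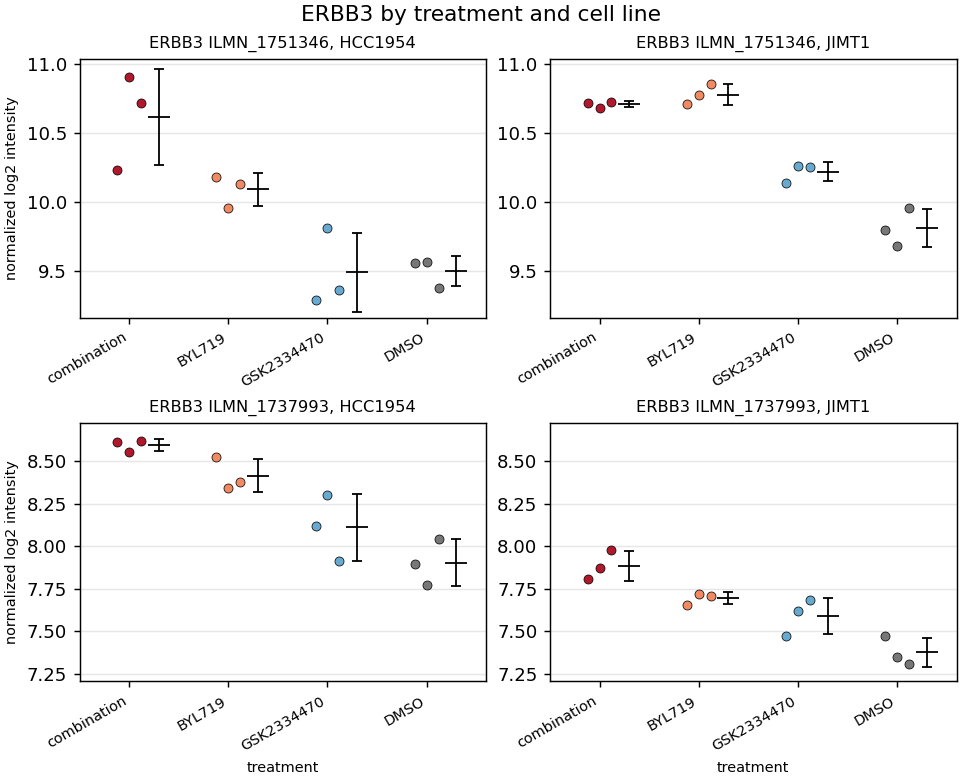
Normalized log2 intensity (y axis) of the 2 brighter ERBB3 probes by treatment (x axis) in HCC1954 (left) and JIMT1 (right); each point is 1 array, and the bar beside it is the mean with its SD (n = 3). In JIMT1 the combination and BYL719 arrays of ILMN_1751346 lie together between 10.68 and 10.85, above the DMSO arrays at 9.68 to 9.96.

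EGFR (chr7:55019017-55211628), the family's founding receptor, was not called against DMSO under any treatment in either line. The brightest probe, ILMN_1798975, had log2 intensities in HCC1954 of 8.86, 9.02 and 8.94 with the combination, 8.70, 8.98 and 8.77 with BYL719, 8.94, 8.99 and 9.11 with GSK2334470, and 8.83, 8.82 and 9.01 with DMSO, which overlap throughout. In JIMT1 it had 8.69, 8.75 and 8.88 with the combination, 8.58, 8.85 and 8.50 with BYL719, 9.03, 9.14 and 9.07 with GSK2334470, and 8.84, 8.74 and 8.70 with DMSO. The 3 JIMT1 arrays with GSK2334470 were the highest of that line. The log2 fold change under the combination was 0.05 in HCC1954 (95% confidence interval -0.16 to 0.26) and 0.02 in JIMT1 (-0.19 to 0.22). Under GSK2334470 in JIMT1 it was 0.32 (0.11 to 0.53, adjusted p = 0.171). The sole called difference of this probe was BYL719 below GSK2334470 in JIMT1, by -0.44 (adjusted p = 0.019), where 2.49% of all probes were called. It was lost without BYL719 replicate 1 (0.0892), BYL719 replicate 3 (0.106), GSK2334470 replicate 2 (0.0878) or GSK2334470 replicate 3 (0.0555). A dimmer probe, ILMN_1696521, stayed between -0.07 and 0.07 in all 6 comparisons with DMSO, and was higher in HCC1954 than in JIMT1 under DMSO by 0.35 (adjusted p = 0.0162, but 0.0722 without JIMT1 DMSO replicate 2), where the brightest probe gave 0.13 (adjusted p = 0.274). The remaining 2 EGFR probes, ILMN_1728858 and ILMN_1755535, failed the filter, with at most 1 detected array in any group.

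ERRFI1 (chr1:8011727-8026309), the feedback inhibitor of the EGFR kinase, separated the 2 agents. Its single probe, ILMN_1665510, was higher with the combination than with BYL719 in both lines, and lower with BYL719 than with GSK2334470 in both. In HCC1954 its log2 intensities were 12.54, 12.45 and 12.62 with the combination, 12.06, 12.04 and 12.10 with BYL719, 12.38, 12.51 and 12.55 with GSK2334470, and 12.33, 12.31 and 12.28 with DMSO. In JIMT1 they were 11.43, 11.44 and 11.53 with the combination, 10.85, 10.90 and 10.89 with BYL719, 11.26, 11.21 and 11.17 with GSK2334470, and 10.918, 10.998 and 10.988 with DMSO. In both lines the combination and GSK2334470 arrays lay above all DMSO arrays and the BYL719 arrays below them.

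ERRFI1 with the combination exceeded ERRFI1 with BYL719 by 0.47 on the log2 scale in HCC1954 (adjusted p = 0.00141 from limma) and by 0.58 in JIMT1 (adjusted p = 0.000218, where 0.936% of all probes were called). Both calls held without any 1 array. BYL719 against GSK2334470 gave -0.41 (adjusted p = 0.00511, background 1.01%) and -0.33 (adjusted p = 0.0125), the JIMT1 call being lost without BYL719 replicate 1 (0.0636) or GSK2334470 replicate 1 (0.0628). Against DMSO, the combination gave 0.50 in JIMT1 (SE 0.07, adjusted p = 5.18e-05) and 0.22 in HCC1954 (adjusted p = 0.0463). The HCC1954 call was lost without combination replicate 1 (adjusted p = 0.105), combination replicate 3 (0.183), DMSO replicate 1 (0.0898), DMSO replicate 2 (0.0785) or DMSO replicate 3 (0.119), and with the replicate number as a block (0.0792). Neither agent alone passed against DMSO. BYL719 gave -0.24 in HCC1954 and -0.08 in JIMT1 (adjusted p = 0.081 and 0.594), and GSK2334470 gave 0.17 (adjusted p = 0.342) and 0.24 (adjusted p = 0.136). The combination effect exceeded the sum of the single-agent effects by 0.30 in HCC1954 and 0.34 in JIMT1 (95% confidence intervals 0.09 to 0.51 and 0.13 to 0.55), and did not pass after adjustment (adjusted p = 0.445 and 0.39, with backgrounds of 0.00470% and 0.0329%). Under DMSO, ERRFI1 was higher in HCC1954 than in JIMT1 by 1.34 (adjusted p = 8.13e-13).

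HBEGF (chr5:140332843-140346603), a ligand of EGFR and ERBB4, fell under BYL719 in both lines. Its single probe, ILMN_2121408, had log2 intensities in HCC1954 of 6.61, 6.48 and 5.86 with the combination, 6.15, 6.02 and 5.67 with BYL719, 6.73, 6.66 and 6.94 with GSK2334470, and 6.57, 7.24 and 6.44 with DMSO. In JIMT1 it had 9.51, 9.68 and 9.71 with the combination, 9.13, 9.15 and 9.18 with BYL719, 10.53, 10.47 and 10.54 with GSK2334470, and 9.95, 10.24 and 10.32 with DMSO. The 4 JIMT1 groups did not overlap one another, with GSK2334470 at the top and BYL719 at the bottom, while in HCC1954 only BYL719 was clear of DMSO. Under DMSO the gene was lower in HCC1954 than in JIMT1 (difference -3.42 on the log2 scale, adjusted p = 1.92e-12).

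Under BYL719 the log2 fold change of HBEGF was -0.80 in HCC1954 (SE 0.19, adjusted p = 0.028 from limma) and -1.02 in JIMT1 (adjusted p = 0.00166), which is 0.494 of the DMSO level in JIMT1. The HCC1954 call was lost without BYL719 replicate 2 (adjusted p = 0.0726), BYL719 replicate 3 (0.147) or DMSO replicate 2 (0.133). It was also lost under the scaling to the median of all probes (0.192) and with no filter (0.0575). In a fit of the HCC1954 arrays alone it was lost as well (0.15). Of 17 alternatives, left-out arrays included, the HCC1954 call held in 10 and the JIMT1 call in 16. The combination gave -0.43 in HCC1954 and -0.54 in JIMT1 (adjusted p = 0.169 and 0.0577). Neither passed, but the JIMT1 value, whose arrays lay below all DMSO arrays, was called under 8 of the alternatives. These were normexp background with an offset of 50 (adjusted p = 0.00441), no background correction (0.0182), scaling over the probes detected on all arrays (0.0442), probes detected on all 24 arrays alone (0.04), 1 probe per gene (0.0456), the JIMT1 arrays alone (0.00581), the replicate number as a block (0.0459) and leaving out DMSO replicate 1 (0.0478). GSK2334470 gave 0.03 and 0.34 (adjusted p = 0.97 and 0.55). BYL719 was below GSK2334470 by -0.83 in HCC1954 and -1.36 in JIMT1 (adjusted p = 0.0393 and 0.000231), and the combination was below GSK2334470 in JIMT1 by -0.88 (adjusted p = 0.00618). The call in HCC1954 was lost on leaving out any of the 6 arrays but GSK2334470 replicate 2 (adjusted p from 0.0546 to 0.19), and both in JIMT1 held. The combination minus BYL719 was 0.37 in HCC1954 and 0.48 in JIMT1 (95% confidence intervals -0.03 to 0.77 and 0.08 to 0.88), which did not pass (adjusted p = 0.441 and 0.257).

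TGFA (chr2:70447284-70553826), another EGFR ligand, fell under the combination in both lines on the probe ILMN_1805175, while its brightest probe was called in JIMT1 alone. This dimmer probe had log2 intensities in HCC1954 of 7.67, 7.47 and 7.58 with the combination, 7.78, 7.45 and 7.71 with BYL719, 8.07, 8.25 and 8.23 with GSK2334470, and 8.22, 8.14 and 8.05 with DMSO. In JIMT1 it had 7.42, 7.56 and 7.50 with the combination, 7.64, 7.52 and 7.65 with BYL719, 8.04, 8.02 and 7.77 with GSK2334470, and 7.73, 7.96 and 7.95 with DMSO. In both lines the combination and BYL719 arrays lay below all DMSO arrays, while the GSK2334470 arrays overlapped them and 2 of the 3 lay above them.

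On that probe the log2 fold change of TGFA with the combination was -0.56 in HCC1954 (SE 0.10, adjusted p = 0.00094 from limma) and -0.39 in JIMT1 cells (adjusted p = 0.0125), and with BYL719 it was -0.49 (adjusted p = 0.0137) and -0.28 (adjusted p = 0.116). The JIMT1 combination call was lost without combination replicate 1 (adjusted p = 0.0515), DMSO replicate 2 (0.0557) or DMSO replicate 3 (0.0551), and the HCC1954 BYL719 call without BYL719 replicate 2 (0.0929) or DMSO replicate 1 (0.0691). The brightest probe, ILMN_2083946, varied more. Under the combination it gave -0.45 in HCC1954 and -0.57 in JIMT1 (adjusted p = 0.132 and 0.0379). The JIMT1 arrays read 8.81, 8.23 and 7.85 with the combination and 8.96, 8.77 and 8.87 with DMSO, so that the groups overlap, and without combination replicate 3 the change was -0.35 (adjusted p = 0.228). That call was also lost without combination replicate 2 (0.104), DMSO replicate 1 (0.114), DMSO replicate 2 (0.0603) or DMSO replicate 3 (0.0846). BYL719 gave -0.60 and -0.53 on this probe (adjusted p = 0.101 and 0.0913) and GSK2334470 gave 0.03 and -0.05.

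**Figure D4:**
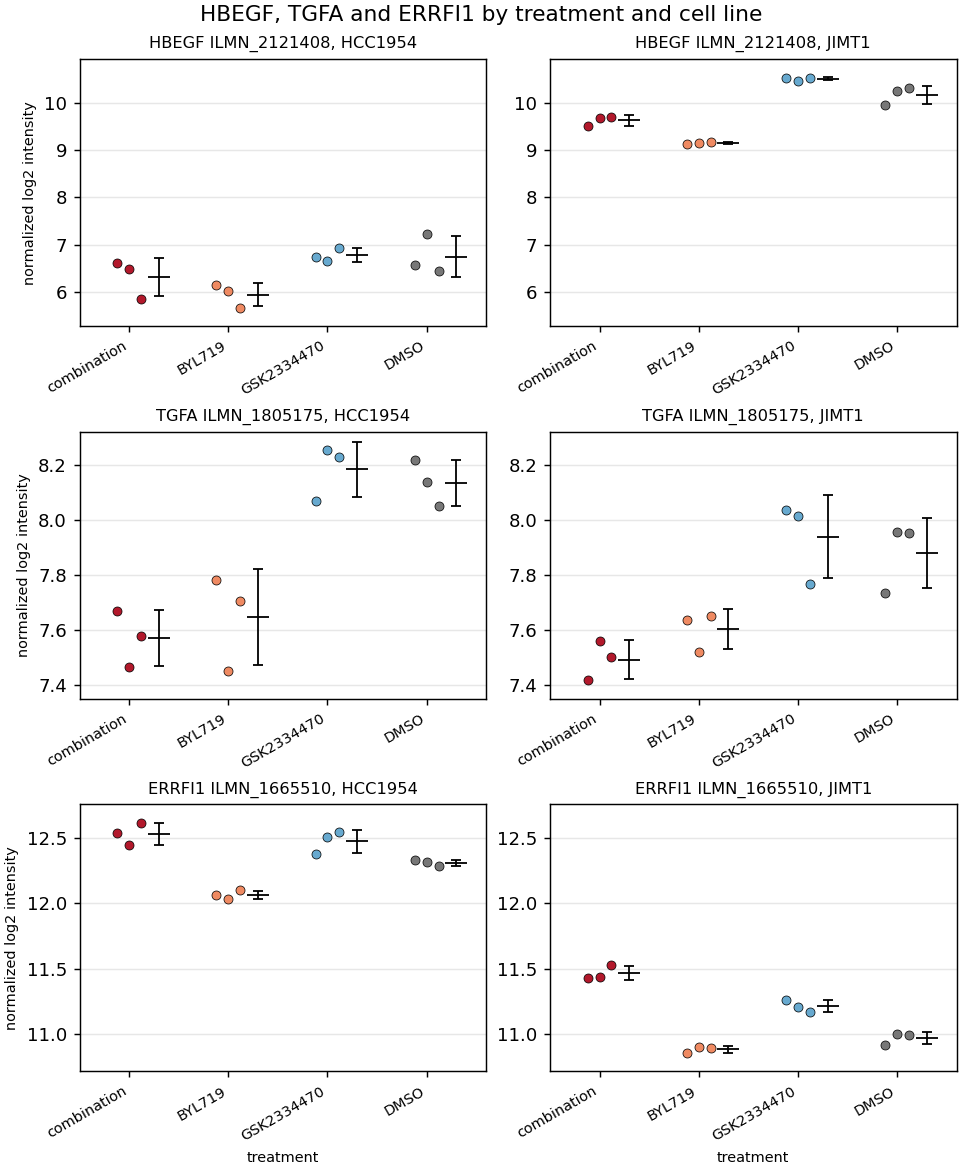
Normalized log2 intensity (y axis, a range of its own for each gene) of HBEGF, TGFA and ERRFI1 by treatment (x axis) in HCC1954 (left) and JIMT1 (right); each point is 1 array, and the bar beside it is the mean with its SD (n = 3). In JIMT1 the 3 BYL719 arrays of HBEGF lie at 9.13 to 9.18 and those of ERRFI1 at 10.85 to 10.90, below the DMSO arrays at 9.95 to 10.32 and 10.918 to 10.998.

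EREG (chr4:74365145-74388749), a ligand of EGFR and ERBB4, was not measured above background. Its single probe, ILMN_1657248, was detected on 0 or 1 of 3 arrays in each group, with mean log2 intensities from 4.99 in HCC1954 with DMSO to 5.28 in JIMT1 with BYL719. AREG (chr4:74445136-74455005), the neighbouring EGFR ligand, had no probe with its name in the annotation used here, and is not analysed here. LRIG3 (chr12:58872155-58920504), a relative of LRIG1, was measured mainly in JIMT1. ILMN_2075757 was detected there on all 12 arrays, at a mean log2 intensity of 7.35 ± 0.26 with the combination, 7.38 ± 0.14 with BYL719, 7.36 ± 0.11 with GSK2334470 and 7.69 ± 0.28 with DMSO (SD, n = 3 arrays each). In HCC1954 it was not well above background on any array with the combination and was detected on 1, 2 and 2 arrays with BYL719, GSK2334470 and DMSO. With both groups near background, the log2 fold change with the combination in HCC1954, -0.44, is a description with no test. In JIMT1 it lay between -0.34 and -0.31 under the 3 treatments (adjusted p from 0.207 to 0.533), and the levels of the treated groups were not separated from each other. Under DMSO the LRIG3 arrays read 5.22, 5.66 and 5.81 in HCC1954 and 7.78, 7.91 and 7.38 in JIMT1. The probe passed the filter only through JIMT1, so these values are a description, with no test.

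Of 25 other genes of the pathway (ERBB4, other ligands, the proteases that release them, other negative regulators and adaptors), 20 had a probe past the filter. Each of the 20 is counted by its brightest such probe alone, while the backgrounds are over all probes. The combination gave 1 gene higher and 1 lower in HCC1954, and 1 higher and 2 lower in JIMT1. BYL719 gave 0 in HCC1954, and 1 higher and 1 lower in JIMT1, and GSK2334470 gave 0 in HCC1954 and 1 higher in JIMT1. Under the combination these are 2 and 3 of 20 genes, near the 10.5% and 16.6% of all probes called, and under BYL719 in JIMT1 2 of 20, with a background of 7.48%. The median log2 fold change of the 20 genes under the combination was -0.03 in HCC1954 and -0.01 in JIMT1, beside 0.00 and -0.01 over all probes.

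The gene that rose in both lines was CBLB, a ubiquitin ligase that marks activated receptors for degradation. In HCC1954 its probe had log2 intensities of 10.06, 10.40 and 10.26 with the combination, 9.89, 9.82 and 9.89 with BYL719, 9.45, 9.44 and 9.14 with GSK2334470, and 9.24, 9.41 and 9.27 with DMSO. In JIMT1 it had 8.55, 8.48 and 8.68 with the combination, 7.91, 8.19 and 7.63 with BYL719, 7.31, 7.37 and 7.42 with GSK2334470, and 6.20, 6.63 and 6.90 with DMSO, and these 4 groups do not overlap one another. The log2 fold change under the combination was 0.94 in HCC1954 and 1.99 in JIMT1 (adjusted p = 0.000288 and 1.5e-08 from limma), and the difference between the lines was -1.05 (HCC1954 minus JIMT1, adjusted p = 0.00876), which was lost under the scaling to the median of all probes (adjusted p = 0.0855). The HCC1954 combination call was also lost under that scaling (0.0535) and by the methods' t-test (0.0579). In JIMT1 it was 1.33 under BYL719 (adjusted p = 8.54e-06) and 0.78 under GSK2334470 (adjusted p = 0.0136), a call lost without GSK2334470 replicate 2 (0.0517), GSK2334470 replicate 3 (0.0568) or DMSO replicate 1 (0.0738). The GSK2334470 call was also lost under that scaling (0.418) and in a fit of the JIMT1 arrays alone (0.111). By the methods' t-test the BYL719 and GSK2334470 calls in JIMT1 were both lost (0.126 and 0.396). In HCC1954 BYL719 gave 0.56, just short of the threshold (adjusted p = 0.0575).

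Among the genes that fell, NRG1, the main ligand of ERBB3, was lower on its brightest probe, ILMN_1737252, and changed by -0.43 in JIMT1 with the combination (adjusted p = 0.00268 from limma). Its arrays there read 8.81, 8.84 and 8.84 with the combination and 9.30, 9.14 and 9.34 with DMSO. The call was lost with no background correction (0.113) and under the scaling to the median of all probes (0.139). In HCC1954 this probe was detected on 0 arrays, and under DMSO it was at least 14.9-fold lower in HCC1954 than in JIMT1, counted against the lowest signal among detected probes of each HCC1954 array. The probe passed the filter only through JIMT1, so that no test is given for this bound. NRG1 has 7 probes, of which 3 passed the filter, and they did not run alike. ILMN_1844593 gave -0.32 in JIMT1 with the combination (adjusted p = 0.25) and was detected on 0 HCC1954 arrays. ILMN_2298888 was detected on 0 JIMT1 arrays, and in HCC1954 on 0 arrays with the combination, 3 with BYL719, 3 with GSK2334470 and 1 with DMSO. It thus passed the filter only through treated HCC1954 groups, and no test is given for it. SOCS5, a suppressor that lowers EGFR levels, changed by -0.42 with the combination and -0.48 with BYL719 in JIMT1 (adjusted p = 0.0236 and 0.0191). Its combination call was lost without combination replicate 3 (0.11) or DMSO replicate 3 (0.0924), and its BYL719 call without BYL719 replicate 1 (0.0846), BYL719 replicate 2 (0.0536) or DMSO replicate 3 (0.0854). Its other probe past the filter, ILMN_2350970, gave -0.58 with the combination (adjusted p = 0.0318) and -0.37 with BYL719 (adjusted p = 0.258). GRB2, the adaptor that links receptors to RAS, changed by -0.30 with the combination in HCC1954 (adjusted p = 0.0294), lost without combination replicate 1 (0.142), combination replicate 2 (0.0716), DMSO replicate 1 (0.0761) or DMSO replicate 3 (0.0866), and with the replicate number as a block (0.0596). The other GRB2 probe, ILMN_1742521, gave -0.19 there (adjusted p = 0.316). Under the scaling to the median of all probes, the GRB2 call was lost (0.148). So were the calls of the first SOCS5 probe with the combination (0.296) and with BYL719 (0.279).

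The genes whose 8 group means, centred within each line, ran most like a member's are given as a description, since the points share normalization and the 2 DMSO groups. They were picked for the highest r among the 12109 genes past the filter, so that high values follow from the choice. For ERBB3 they were TSC1, FBXL20 and SEMA4C (Pearson r = 0.991, 0.989 and 0.985), and for LRIG1 they were RPS6KA3, IFNE and ANTXR2 (0.981, 0.981 and 0.975). For HBEGF they were SPRED1, TNFAIP3 and TMEM38B (0.993, 0.989 and 0.966), for TGFA PLEK2, E2F3 and SEH1L (0.994, 0.992 and 0.987), and for ERRFI1 CHMP2B, CDIN1 and OSGIN2 (0.959, 0.956 and 0.942). EGFR and LRIG3, with no called change against DMSO, had SGMS2, PCSK6 and SNORA84 (0.964, 0.961 and 0.959) and PLXNA2, LSP1P5 and ST3GAL4 (0.985, 0.985 and 0.984). The HCC1954 means of LRIG3 among these points lay near background. TSC1 is a subunit of the complex that restrains mTORC1, SPRED1 is an inhibitor of RAS to ERK signalling, and TNFAIP3 is a feedback inhibitor of NF-kB.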

How the data were processed

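Total RNA of 24 cultures was hybridised to Illumina HT-12 bead arrays. The authors deposited mean bead intensity per probe and array, neither background-subtracted nor normalized, with a detection p-value and bead numbers. Their processing notes name GenomeStudio (version not given in the sources used here). Processed intensities that the authors deposited served as an alternative alone, since their method is not stated. Bead standard errors (24 columns) played no part.

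Background was corrected with neqc (offset 16) and arrays were quantile normalized on the log2 scale in limma 3.58.1 (R 4.3.3), which hides a change shared by most genes. The filter kept 21256 of 47323 probes, those detected (p-value under 0.05) on every array of 1 or more groups. Genes were named from the array annotation (30113 probes with 1 symbol, 8 with several, 17202 with none in the table). A limma model of the 8 group means gave all 18 contrasts (16 residual and 3.71 prior degrees of freedom). The procedure was tested on simulated data. Confidence intervals are at 95% and not adjusted.

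The named genes are all members, the 3 genes most like each, and the other pathway genes called under the combination. The members and lists were chosen with earlier results of these data known. The replicate numbers do not pair the arrays. No array was identical to another, and p-values measure the spread between labelled replicates.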

Additional observations from a re-analysis of the deposited data

Results flagged for a closer look

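The effect of treatment on LRIG1 differed between the cell lines by a test of the difference itself (HCC1954 minus JIMT1). Under the combination the difference was 1.59 on the log2 scale on ILMN_2128795 (SE 0.16, limma adjusted p = 1.07e-05) and 1.59 on ILMN_1707342 (SE 0.15, adjusted p = 4.42e-06). Under BYL719 it was 1.05 (SE 0.16, adjusted p = 0.00227) and 1.23 (SE 0.15, adjusted p = 0.000212). In each case all 3 treated HCC1954 arrays lay above all 3 HCC1954 DMSO arrays, and all 3 treated JIMT1 arrays lay below all 3 JIMT1 DMSO arrays. With 3 arrays per group, no group was tested for outlying arrays.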

How the results depend on the processing

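Counts of called member probes, of 12 unless said, were recomputed under other settings. With arrays scaled to the median of all probes in place of quantile normalization, BYL719 gave 0 in HCC1954 and 2 in JIMT1, the combination gave 2 in JIMT1, and the line difference for BYL719 gave 0, so that both LRIG1 probes lost that call (adjusted p = 0.48 and 0.227). That scaling moved the median log2 fold change of all probes to -0.11 for the combination against DMSO in HCC1954 and to 0.11 for GSK2334470, to -0.14 and 0.12 for the line differences of these treatments, and to -0.22 for the combination and -0.17 for BYL719 against GSK2334470 in HCC1954, and most of the probes it rests on were not detected on a given array. A scaling over the probes detected on all 24 arrays, chosen after seeing the data, moved no count of member probes by over 1.5 times (over all probes, the BYL719 line difference gave 92 calls). Over all 21256 probes, the scaling to the median of all probes gave 948 calls for the combination in HCC1954 (main setting 2235), 43 for BYL719 in HCC1954 (462), 1275 and 352 for the combination and BYL719 in JIMT1 (3527 and 1590), 25 for GSK2334470 in JIMT1 (171), and 135 and 13 for the line differences of the combination and BYL719 (579 and 148). Leaving out the dim ERBB3 probe, also chosen after seeing the data, gave 6 of 11 for the combination in HCC1954. With 1 probe per gene (7 testable), the combination gave 3 in HCC1954 and the line differences 1 for the combination and 1 for BYL719, as fewer probes were tested. In a fit of the HCC1954 arrays alone, BYL719 gave 2 (204 over all probes). The plain t-test, adjusted in the same way, gave 2 and 4 for the combination in HCC1954 and JIMT1, and 0 for BYL719 in either line. Over all probes it gave 327 and 1347 for the combination and 0 and 179 for BYL719 in the same lines. With no filter, BYL719 in HCC1954 gave 283 calls over all probes and the line differences 362 and 91. GSK2334470 in JIMT1 gave 110 with no filter, 68 in a fit of that line alone and 4 by the plain t-test.

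Leaving out 1 array at a time gave 6 to 7 for the combination in HCC1954, 2 to 5 for BYL719 in HCC1954 (2 without BYL719 replicate 2), 4 to 7 for the combination in JIMT1 (4 without DMSO replicate 2) and 3 to 4 for BYL719 in JIMT1. The other counts did not move. The replicate numbers do not pair the arrays: of 36 same-numbered pairs within a line, 2 correlated over 0.1 (range -0.215 to 0.219), and 5 of 24 arrays correlated best with their own number. With the replicate number as a block, the counts were 6 and 8 for the combination in HCC1954 and JIMT1, and 6 and 4 for BYL719.

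Over all 18 contrasts, 58 member values were called. Of 971 values of these under the alternatives, 765 stayed called, 206 were no longer called and 0 turned sign. Of 2827 values of the 158 uncalled ones, 24 became called. A further 174 differed in sign and were called in neither fit. The files name no chip, so a block by chip was not run. EREG, 2 EGFR probes and, in HCC1954, LRIG3 lay at or near background, where changes cannot be read.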
